A study of Mus musculus with 28 samples.

Results

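The Schwann cell and myelin genes followed here were *Mbp*, *Sox10*, *S100b*, *Pmp22*, *Prx*, *Ngfr* and *Cdh19*, 7 of the 25719 genes in the count files. They were chosen by name as genes of peripheral nerve, with earlier results of these data known, and all 7 were matched to a gene identifier. The tissue was mouse tail tendon, and the cells studied were those of whole homogenized fascicles. Bulk RNA-sequencing covered 28 libraries, each from 1 mouse, in 4 groups: 7 WT and 8 Fosl-2(Tg) mice at the early stage, aged 6 to 8 weeks, and 6 WT and 7 Fosl-2(Tg) mice at the established stage, older than 14 weeks. All mice were on the C57BL/6 background. Fosl-2(Tg) mice carry randomly inserted murine Fosl2 under the H2Kb (MHC class I) promoter, followed by eGFP through a self-cleaving peptide, so that the transgene is not restricted to tendon cells, and the controls were non-transgenic mice from the same breeding. The 15 early mice were male, whereas the established mice were 11 females and 2 males, 1 of each genotype, so stage, age and sex cannot be told apart. Libraries held 9645598 to 66894396 counts in genes.

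Schwann cells ensheathe the axons of peripheral nerves. Myelinating Schwann cells wrap a single axon and transcribe the structural genes of compact myelin, among them *Mbp* and *Pmp22*, together with *Prx*, whose product periaxin links the myelin sheath to the basal lamina. Non-myelinating and immature Schwann cells instead transcribe *Ngfr* and *Cdh19*, while *Sox10*, a transcription factor, and *S100b*, a calcium-binding protein, are found in both kinds. Several of these genes are also transcribed outside nerve. *Pmp22* is known in fibroblasts, *Prx* in some endothelium, and *S100b* in chondrocytes, adipocytes and melanocytes. *Ngfr* is known in fibroblasts and pericytes, and *Sox10* in melanocytes. In bulk RNA, fewer cells of a type and less RNA per cell cannot be told apart.

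The members differed widely in level. Divided by exon length, the median level of *Pmp22* was highest in each of the 4 groups, at 55.3 to 91.1 CPM per kb, where CPM is the count scaled to library size with TMM factors. *Mbp* came next, with group medians of 2.09 to 4.19 CPM per kb, followed by *S100b* and *Prx* at 0.772 to 1.33 and 0.888 to 1.06 CPM per kb. The ranges of *S100b* and *Prx* overlapped in every group, so their order was not resolved, and in established Fosl-2(Tg) mice the wider ranges of *Mbp* and *Prx* and of *S100b* and *Ngfr* overlapped as well. *Ngfr*, *Sox10* and *Cdh19* were last, with no group median above 0.273 CPM per kb, and their ranges overlapped each other in every group. *Sox10* was counted in 27 of 28 libraries, mostly as fewer than 10 counts, and *Cdh19* was at 0 in 7 libraries, which allows at most 0.0418 to 0.334 CPM depending on the library.

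Schwann cell transcripts were concentrated in single libraries. *Prx* reached 39.8 CPM in Fosl-2(Tg) established replicate 6, 21.6 CPM in WT early replicate 1, 13.6 CPM in WT established replicate 3 and 12.2 CPM in WT early replicate 7. The other 24 libraries had a median of 5.13 CPM and lay between 3.82 and 8.16 CPM. These 4 libraries belonged to 3 of the 4 groups, and they were singled out after their values were seen. *Mal*, which encodes a myelin membrane protein, was highest in the same 4 libraries, at 2.38 to 11.5 CPM, and did not pass 1.05 CPM in the other 24. *Kcna1*, a potassium channel gene, was also highest in them, at 4.45 to 14.7 CPM against at most 2.17 CPM elsewhere. Both genes were named for their likeness to *Sox10* in these data, and not every nerve gene shared these libraries. *Drp2*, a myelin gene, was highest in Fosl-2(Tg) established replicate 6 and next highest in WT established replicate 6, at 34.2 CPM. The summed skeletal muscle markers lay between 56.6 and 185 CPM in these 4 libraries, all among the 7 lowest sums of the 28 libraries, whose highest sum was 9900 CPM.

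**Figure D1:**
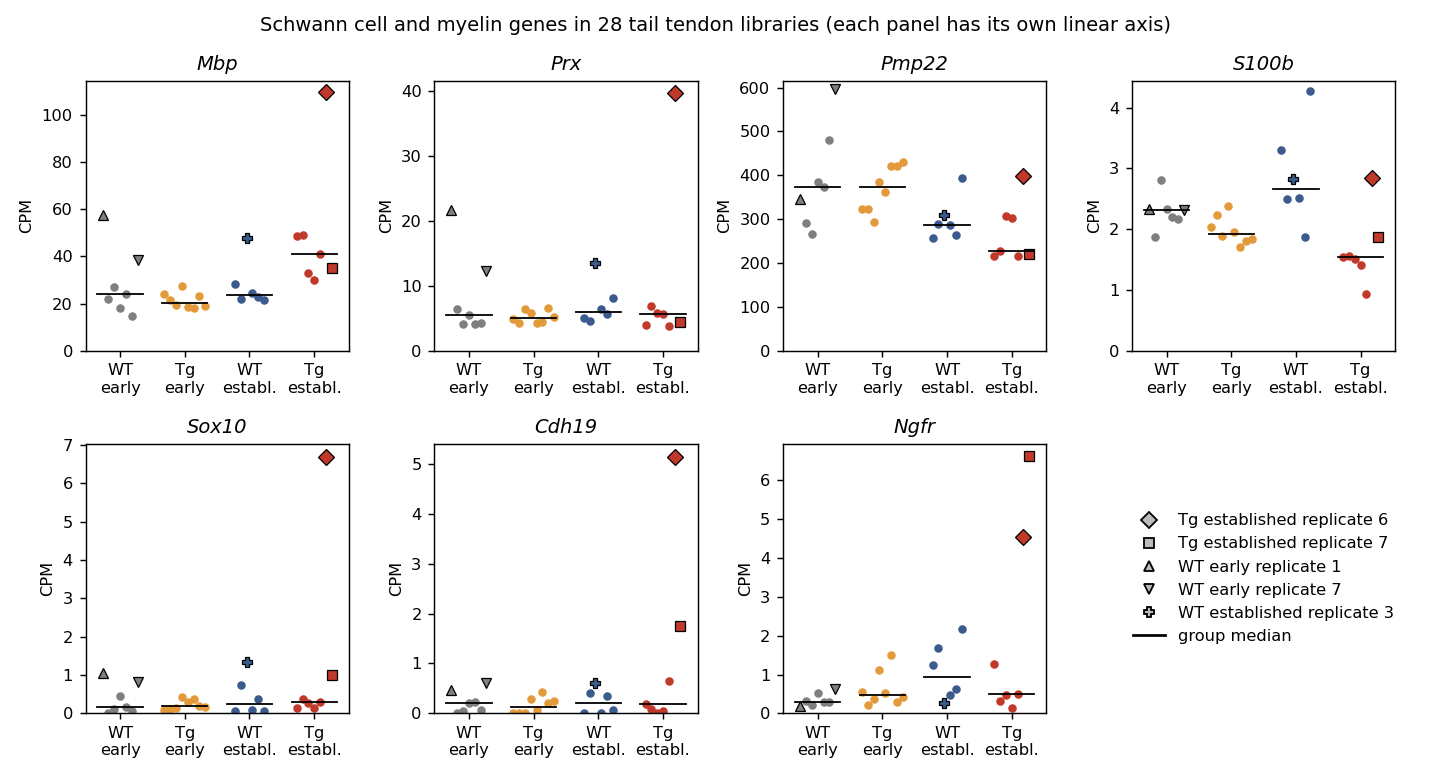
CPM of the 7 members in each of the 28 mice, by group (WT early n = 7, Tg early n = 8, WT established n = 6, Tg established n = 7), on a linear axis per gene; lines are group medians and the marked symbols are the libraries named in the key. Tg established replicate 6 is the highest library for *Mbp*, *Prx*, *Sox10* and *Cdh19*, and Tg established replicate 7 for *Ngfr*.

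Fosl-2(Tg) established replicate 6 stood apart most. Its *Sox10* was 6.70 CPM (99 counts; exact 95% binomial interval 5.44 to 8.15 CPM, which covers counting error only), 23.5 times the median of the other 6 mice of its group. Its *Cdh19* was 5.14 CPM, 37.1 times that median, its *Prx* 7.82 times, its *Mbp* 2.88 times, its *S100b* 1.86 times and its *Pmp22* 1.78 times. Of the summed CPM of the 7 mice, this 1 library held 75.1% for *Sox10*, 65.3% for *Cdh19* and 56.5% for *Prx*. Among genes that passed the filter on low counts in the fit of all groups, it was the highest of 28 libraries for 3 of 6 members, for 11 of 13 other myelin genes and for 6 of 11 other Schwann cell genes, against 4.59% of all 16082 genes. It was the highest library for 0 of 5 axon genes and 0 of 3 perineurium genes, perineurium being the sheath around a nerve fascicle. Its summed axon level, 6.02 CPM, was the lowest of its group (11.9 to 21.4 CPM in the others), and that of WT early replicate 1, 8.19 CPM, was likewise the lowest of its group (10.5 to 13.0 CPM in the others). The other libraries richest in *Prx* were not the lowest of their groups: WT early replicate 7 was at 11.1 CPM and WT established replicate 3 at 20.5 CPM. In Fosl-2(Tg) established replicate 6 and WT early replicate 1 the axonal neurofilament genes *Nefl* and *Nefm* were at 0. Their axon sums thus came from other genes of the list, and how far these sums follow axons was not tested.

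The members were not all high in the same libraries. Fosl-2(Tg) established replicate 7 had the highest *Ngfr* of all libraries (6.62 CPM, 174 counts, interval 5.67 to 7.68 CPM) and the next highest *Cdh19* after replicate 6 (1.75 CPM), with *Sox10* at 0.989 CPM. Its *Prx* was 4.49 CPM, inside the range of the 24 libraries described above. *Scn7a*, a sodium channel gene of non-myelinating Schwann cells, was 16.9 CPM there and 31.9 CPM in replicate 6, and it reached 22.2 CPM in WT established replicate 2, where *Prx* was 4.59 CPM and *Sox10* 0.747 CPM. WT early replicate 1 combined high *Prx* with *Ngfr* of 0.200 CPM, the lowest of its group but only 3 counts (interval 0.0412 to 0.584 CPM). WT early replicate 7, also rich in *Prx*, had the highest *Ngfr* of that group, at 0.641 CPM (18 counts).

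**Figure D2:**
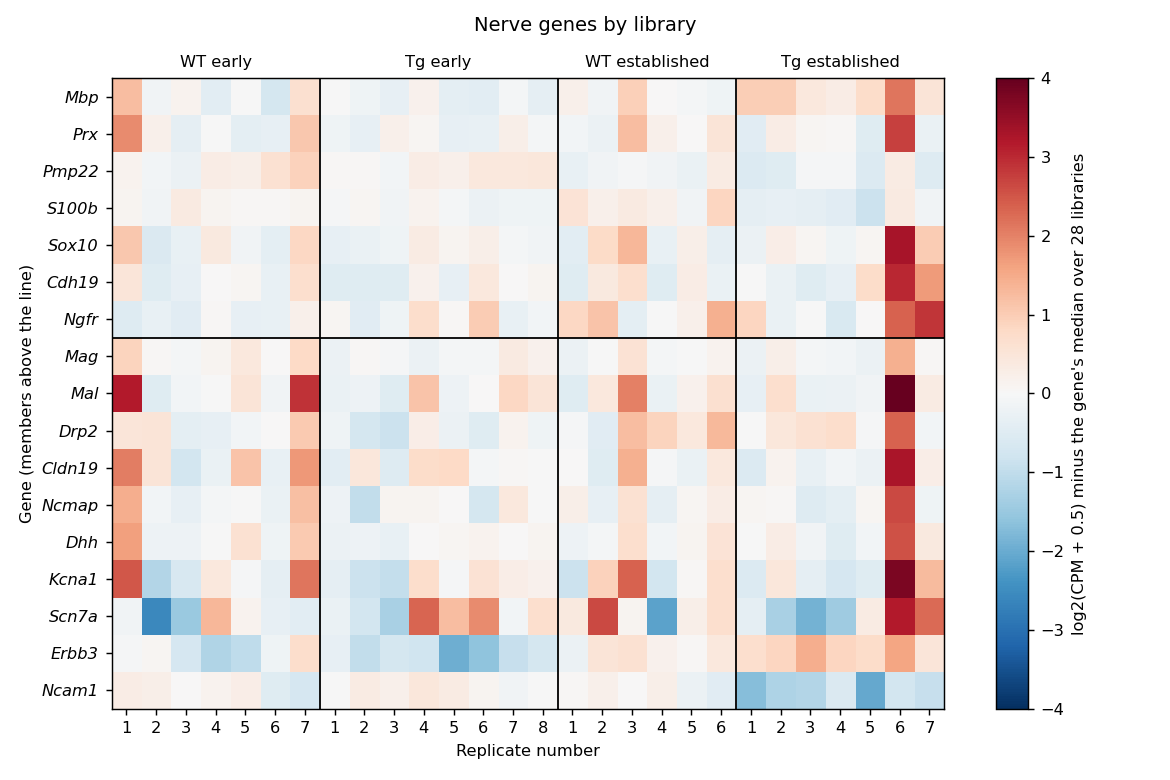
Colour is log2(CPM + 0.5) minus the median of that gene over 28 libraries; columns are libraries by group and replicate number, and rows are the 7 members above the line and 10 other Schwann cell and myelin genes below it. Columns WT early 1 and 7, WT established 3 and Tg established 6 are red for *Prx*, *Mal* and *Kcna1*, while Tg established 7 is red for *Ngfr*, *Cdh19* and *Scn7a*.

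Across mice, *Cdh19* followed *Sox10* most closely. On log2 CPM deviations from the group mean over 28 mice, the Pearson r of *Cdh19* with *Sox10* was 0.85 and the Spearman rho 0.84 (two-sided permutation test within groups, p = 1e-05 for each, the smallest that 100000 permutations can give; adjusted p = 6e-05 over 6 members). It was 0.77 without the 2 mice farthest from the median of *Sox10* (adjusted p = 0.00012, permutation), 0.81 among the early mice and 0.87 among the established mice. *Prx* (r = 0.71, rho = 0.42) and *Mbp* (r = 0.66, rho = 0.35) had an adjusted permutation p of 0.00632 for r, and of 0.150 and 0.197 for rho. Without those 2 mice, Fosl-2(Tg) established replicate 6 and WT established replicate 3, r was 0.40 and 0.38 with adjusted permutation p of 0.249 for both. Among the 15 early mice, which include neither, r was 0.65 for *Prx* and 0.61 for *Mbp* (adjusted permutation p = 0.122 for both). *Pmp22* (r = 0.41), *Ngfr* (r = 0.39) and *S100b* (r = 0.31) did not pass the adjusted permutation test, with p of 0.0946, 0.115 and 0.195. All members share the library and its depth.

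Among the 10 genes outside the members whose deviations were most like those of *Sox10*, of 14569 genes with a mean of at least 1 CPM, were *Kcna1*, *Mal*, *Kcna2*, *Aatk*, *Chl1*, *Nfasc*, *Kif1a* and *Sfrp2*, with Pearson r of 0.71 to 0.91 over 28 mice. *Kcna1* and *Kcna2* encode voltage-gated potassium channels, and *Nfasc* and *Chl1* cell adhesion molecules. Fosl-2(Tg) established replicate 6 was the highest library for each of these genes except *Chl1*, which was highest in replicate 7. Because the genes were picked by their r with *Sox10*, itself highest in replicate 6, this was largely set by the choice. The limit on the mean also admitted genes carried by few libraries, such as *Mal*, with a median of 0.207 CPM. Without the 2 mice named above, r stayed at 0.86 for *Kcna1* and at 0.74 for *Mal* and *Kcna2*, and was 0.56 for *Nfasc*.

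At the early stage, no member passed the test between genotypes. The question was whether nerve genes differ before tendon disease is established. *Sox10*, *Ngfr* and *Cdh19* were left out by the filter, and of the 4 members tested 0 were called by edgeR's quasi-likelihood test at an FDR of 0.05, beside 0.0396% of all 15138 genes. *Mbp* ranged from 14.6 to 57.7 CPM with a median of 24.2 in WT mice and from 18.1 to 27.3 CPM with a median of 20.3 in Fosl-2(Tg) mice. The Fosl-2(Tg) range lay inside the WT range, and the log2 fold change was −0.44 (SE 0.23, edgeR FDR = 0.834), and −0.16 without WT early replicate 1. *Prx* ranged from 4.10 to 21.6 CPM with a median of 5.47 in WT mice and from 4.30 to 6.57 CPM with a median of 5.04 in Fosl-2(Tg) mice. Its log2 fold change was −0.66 (SE 0.33, edgeR FDR = 0.834), and −0.21 without WT early replicate 1. *S100b* (−0.22, SE 0.12) and *Pmp22* (−0.08, SE 0.15) had edgeR FDRs of 0.841 and 0.952. The groups of 0 tested members were free of overlap, against 0.0528% of all genes, and with the replicate number as a block 0 were called, beside 0.0727% of all genes. Without the filter, the log2 fold changes were −0.68 (SE 0.60) for *Sox10*, −0.50 (SE 0.69) for *Cdh19* and 0.83 (SE 0.40) for *Ngfr*, with edgeR FDRs of at least 0.799.

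At the established stage, *Mbp* was the member with the clearest difference toward Fosl-2(Tg) mice and *S100b* toward WT mice, and neither passed the threshold over all genes. Of the 5 members tested, 0 were called by edgeR, beside 6.51% of all 15862 genes. Unadjusted p was under 0.05 for 2 of them, *Mbp* and *S100b*, beside 4213 of all genes.

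*Mbp* ranged from 21.6 to 47.9 CPM with a median of 23.7 in WT mice and from 30.005 to 109.5 CPM with a median of 40.8 in Fosl-2(Tg) mice. The groups overlapped through 1 WT mouse: 5 of 6 WT mice lay at or below 28.1 CPM, under all 7 Fosl-2(Tg) mice, and the sixth was WT established replicate 3, which was also rich in *Prx*. The log2 fold change was 0.83 (SE 0.30, edgeR FDR = 0.0992), and 0.51 (SE 0.20, FDR = 0.129) without Fosl-2(Tg) established replicate 6. DESeq2 called *Mbp* (FDR = 0.0440), where 11.7% of genes were called. In the other 6 Fosl-2(Tg) mice *Mbp* was 30.005 to 48.9 CPM while *Prx* was 3.82 to 6.84 CPM, overlapping the *Prx* range of the 5 lower WT mice (4.59 to 8.16 CPM). Fosl-2(Tg) replicates 1 and 2 had nearly equal *Mbp*, 48.8 and 48.9 CPM, at 3.92 and 6.84 CPM of *Prx*. The *Mbp* gene (chromosome 18, 82493207 to 82603763, plus strand, GRCm39) overlaps the annotated genes *Gm58827* and *Rpl21-ps8*, and reads of overlapping genes could not be separated here. The summed level of erythroid markers was 10.2 to 125.5 CPM against 8.94 to 20.1 CPM in WT mice, with 0 of 4 tested genes called, and it was lowest in replicate 6, the mouse with the highest *Mbp*. Of 7 tenocyte genes 3 were lower in Fosl-2(Tg) mice (*Col1a1*, log2 fold change −2.50, *Tnmd*, −2.03, and *Scx*, −1.27), and their summed level, at 2739 to 55497 CPM, lay below that of every WT mouse (62828 to 131428 CPM). Of 6 tested macrophage genes all 6 had a positive log2 fold change and 1 was called higher, beside 498 of all 15862 genes. Their summed level was 714 to 1255 CPM in Fosl-2(Tg) mice and 545 to 969 CPM in WT mice. The part of these cell types in the *Mbp* value was not tested.

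**Figure D3:**
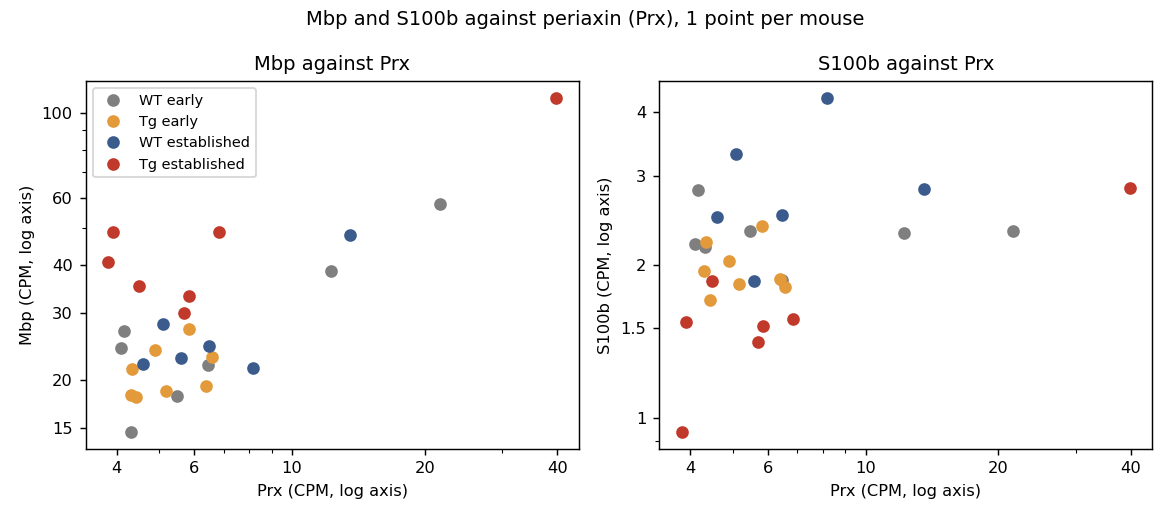
CPM of *Mbp* (left) and *S100b* (right) against CPM of *Prx*, on log axes, 1 point per mouse and coloured by group. The 4 libraries with *Prx* of at least 12.2 CPM have *Mbp* of 38.6 to 109.5 CPM and *S100b* of 2.31 to 2.84 CPM; the 6 Tg established mice other than replicate 6 lie at 30.005 to 48.9 CPM of *Mbp* and at 0.938 to 1.86 CPM of *S100b*.

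*S100b* went the other way. It ranged from 1.86 to 4.27 CPM with a median of 2.66 in WT mice and from 0.938 to 2.84 CPM with a median of 1.54 in Fosl-2(Tg) mice, and 5 of 7 Fosl-2(Tg) mice lay below every WT mouse. The highest Fosl-2(Tg) mouse was replicate 6. The log2 fold change was −0.77 (SE 0.24, edgeR FDR = 0.0651). Without replicate 6 it was −0.93 (SE 0.21) and *S100b* was called (edgeR FDR = 0.0247, beside 7.19% of all genes); it was also called by DESeq2 (FDR = 0.0177), by limma voom (FDR = 0.0174, beside 12.5% of all genes), and by edgeR with sex as a covariate (FDR = 0.0276, beside 9.23%), with a replicate block (FDR = 0.0248, beside 5.83%) and without replicates 6 and 7 (FDR = 0.0193, beside 9.99%). Of 4 tested chondrocyte genes, 2 were lower in Fosl-2(Tg) mice (*Matn3*, log2 fold change −2.50, and *Col2a1*, −1.63), beside 534 of all 15862 genes lower. *Hapln1* (−0.30) and *Acan* (1.10) did not pass the test, and the summed chondrocyte level was 5.48 to 41.1 CPM against 38.3 to 64.1 CPM in WT mice. Of the melanocyte genes, *Mitf* was higher (log2 fold change 1.04, edgeR FDR = 0.00844), while the pigment enzyme genes *Tyr* and *Dct* did not exceed 0.334 CPM in any library. The part of these cell types in the *S100b* value was not tested. Reads of *S100b* and the overlapping gene *Dip2a* may also not be separated.

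*Prx* turned on 1 library. In WT mice it ranged from 4.59 to 13.6 CPM with a median of 6.03, and in Fosl-2(Tg) mice from 3.82 to 39.8 CPM with a median of 5.69. Apart from replicate 6, no Fosl-2(Tg) mouse passed 6.84 CPM. The log2 fold change of 0.47 (SE 0.55, edgeR FDR = 0.612) became −0.49 (SE 0.26, FDR = 0.245) without replicate 6. *Ngfr* likewise ranged from 0.260 to 2.17 CPM in WT mice and from 0.151 to 6.62 CPM in Fosl-2(Tg) mice, with medians of 0.943 and 0.505. Its log2 fold change was 0.93 (SE 0.81, edgeR FDR = 0.479), and −0.996 (FDR = 0.290) without Fosl-2(Tg) replicates 6 and 7. *Pmp22* ranged from 256 to 394 CPM with a median of 287 in WT mice and from 216 to 399 CPM with a median of 227 in Fosl-2(Tg) mice, with a log2 fold change of −0.15 (SE 0.16, edgeR FDR = 0.577). *Sox10* and *Cdh19* did not pass the filter; without it their log2 fold changes were 1.41 (SE 0.97) and 2.12 (SE 1.18), with edgeR FDRs of 0.406 and 0.303. Their WT medians of 0.238 and 0.212 CPM stood beside 0.289 and 0.193 CPM in Fosl-2(Tg) mice. The groups of 0 tested members were free of overlap, against 3.81% of all genes.

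The promoters of *Prx* and *S100b* are given because these members parted in the 4 libraries richest in *Prx*, where *S100b* was 2.31 to 2.84 CPM, inside its range of 0.938 to 4.27 CPM in the other 24. RefSeq promoter windows (build GRCm38.p6, which is not the build of the counts) were matched for 4 of 7 members; *Mbp*, *Sox10* and *Cdh19* were not matched. The 250 bases before each start are printed 5′ to 3′, for *Prx* chr7:27499074-27499323 and for *S100b* chr10:76253586-76253835, both on the plus strand. Capitals mark a match to GTGGGNG, a core of the sites of EGR factors such as EGR2 of myelinating cells, here on the reverse strand 107 to 101 bases before the *Prx* start.
Prx: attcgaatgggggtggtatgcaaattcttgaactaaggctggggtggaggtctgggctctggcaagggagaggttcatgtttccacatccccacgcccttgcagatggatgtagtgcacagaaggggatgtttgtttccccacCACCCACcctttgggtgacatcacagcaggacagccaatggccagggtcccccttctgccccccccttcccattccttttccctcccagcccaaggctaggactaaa
S100b: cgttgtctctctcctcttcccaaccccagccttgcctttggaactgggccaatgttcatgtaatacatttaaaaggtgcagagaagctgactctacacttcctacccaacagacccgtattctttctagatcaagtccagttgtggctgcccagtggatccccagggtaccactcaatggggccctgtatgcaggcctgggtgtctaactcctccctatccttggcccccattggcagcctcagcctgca
Both strands of all 32851 such windows were searched. GTGGGNG stood in 28.1% of them and in 1 of the 7 member windows. These windows covered only 4 of the 7 members, several being alternative starts of *Pmp22*, and none came from *Mbp*, *Sox10* or *Cdh19*. ACAAAG and ACAATG, cores of SOX factor sites, stood in 16.5% and 10.7% of all windows and in 0 of the 7 member windows. A match is a description of these letters alone.

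Between the stages, *Mbp* and *Pmp22* moved in opposite directions in Fosl-2(Tg) mice. In a single edgeR fit of the 4 groups, 0 of 6 tested members were called between established and early WT mice, beside 5.81% of 16082 genes, with an unadjusted p under 0.05 for 2 (*Ngfr*, log2 fold change 1.50, and *Pmp22*, −0.38) beside 3603 of all genes, and the stages of 0 members were free of overlap, against 2.22% of all genes. In Fosl-2(Tg) mice 4 of 6 were called, beside 47.8% of all genes. *Mbp* rose by a log2 fold change of 1.22 (SE 0.27, edgeR FDR = 0.000542), and the 7 established mice, from 30.005 CPM, all lay above the 8 early mice, up to 27.3 CPM; 14.1% of all genes were as separate between these groups. In the same comparison 6 of 7 tenocyte genes (*Col1a1*, log2 fold change −4.33) and 4 of 4 chondrocyte genes fell and 4 of 5 erythroid genes rose, and the median summed tenocyte level was 293830 CPM early and 22116 CPM established. Their part in the changes of the members was not tested. *Pmp22*, at 216 to 399 CPM against 294 to 431 CPM, fell by 0.46 (SE 0.16, edgeR FDR = 0.0194). *Sox10* rose by 2.32 (SE 0.86, edgeR FDR = 0.0274) and *Ngfr* by 1.60 (SE 0.63, FDR = 0.0374), yet 5 of 7 established mice lay inside or below the early range for each, and without replicate 6 the values were 0.66 (FDR = 0.463) and 1.24 (FDR = 0.109). Without replicate 7, *Ngfr* was at 0.80 (edgeR FDR = 0.276). The calls of *Mbp* and *Pmp22* held without replicate 6, where 46.2% of all genes were called, and *S100b* was then called as well, at −0.43 (edgeR FDR = 0.0310). *Prx* (0.92, SE 0.45) had an edgeR FDR of 0.0921. *Cdh19* did not pass the filter, and without it the log2 fold change was 2.63 (SE 0.98, edgeR FDR = 0.0375). Of the 7 established mice 3 lay above all early mice for *Cdh19*, and its medians were 0.130 CPM early and 0.193 CPM established.

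**Figure D4:**
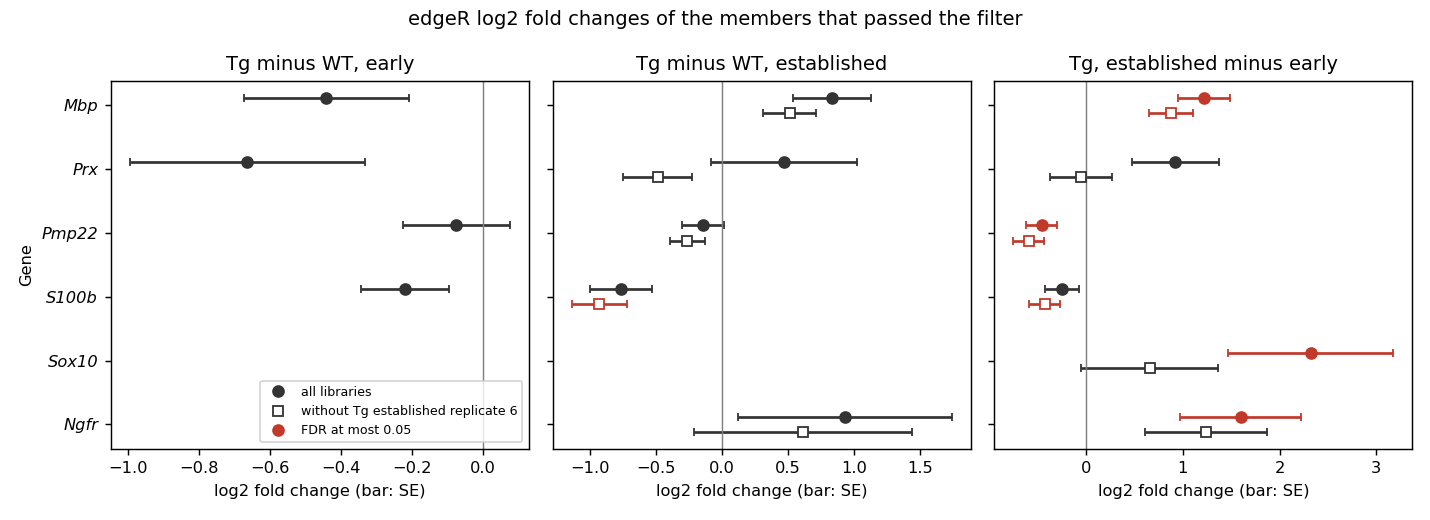
Log2 fold change and SE from edgeR for members that passed the filter, in 3 comparisons (early: 8 Tg and 7 WT mice; established: 7 Tg and 6 WT mice; Tg established against Tg early). Filled circles use all libraries, open squares leave out Tg established replicate 6, and red marks an FDR of at most 0.05; *Prx* changes sign without that library, and *Mbp* in Tg mice stays above 0.

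The genotype difference itself differed between stages for 1 of 6 tested members, beside 7.43% of all genes. For *Mbp* the interaction was 1.27 on the log2 scale (SE 0.39, edgeR FDR = 0.0457), from −0.44 early to 0.83 established. With each library left out in turn it passed the threshold in 9 of 28 fits. It lost it without Fosl-2(Tg) established replicate 6 (0.95, FDR = 0.0712), without WT early replicate 1 (1.00, FDR = 0.0883) and with a replicate block (1.10, FDR = 0.0790). For *S100b* the interaction was −0.55 (SE 0.25, edgeR FDR = 0.172). It was called with the replicate block (−0.62, FDR = 0.0416, beside 12.4% of all genes) and without replicate 6 (−0.72, FDR = 0.0446, beside 8.32%).

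Among other genes of nerve, none of 25 tested Schwann cell, axon and perineurium genes was called at the early stage by edgeR, with an unadjusted p under 0.05 for 6, beside 917 of all 15138 genes. Of 27 tested at the established stage, 2 were higher and 1 lower, beside 498 and 534 of all 15862 genes. *Erbb3*, a neuregulin receptor of Schwann cells that epithelial and stromal cells also transcribe, ranged from 4.66 to 8.75 CPM in WT and from 8.03 to 17.5 CPM in Fosl-2(Tg) mice (log2 fold change 0.76, SE 0.20, edgeR FDR = 0.0422; 0.64 and FDR = 0.0555 without replicate 6). *Tubb3*, a neuronal tubulin, was 0.325 to 0.969 CPM in WT and 0.503 to 2.24 CPM in Fosl-2(Tg) mice (1.33, SE 0.37, edgeR FDR = 0.0476). *Ncam1*, a neural cell adhesion molecule also known in stromal cells, was lower, at 63.5 to 179 CPM in Fosl-2(Tg) mice and 192 to 311 CPM in WT mice with no overlap (−1.11, SE 0.21, edgeR FDR = 0.0153). Of the neurotrophin genes, *Ntrk3*, a neurotrophin receptor, was lower, 1 of 9 tested (−1.50, SE 0.35, edgeR FDR = 0.0271).

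The myelin list showed how far 1 library carried a group. All 9 tested myelin genes had a positive established log2 fold change, with a median of 0.48 beside 0.01 for all genes, and 0 were called. Without Fosl-2(Tg) replicate 6, 5 were positive and 4 negative and the median was 0.01, beside 0.0028 for all genes. *Mag*, a myelin adhesion protein, did not exceed 1.08 CPM. The axonal neurofilament genes were near 0, with 3 counts of *Nefl* over all 28 libraries and *Nefm* at 0.577 CPM at most, also in the libraries richest in *Prx*. Neuronal cell bodies lie outside the tail tendon. Between stages in Fosl-2(Tg) mice, 4 of 13 tested myelin genes rose, among them *Drp2* (1.10), *Pllp* (0.84) and *Pou3f1* (0.80), beside 4151 of all 16082 genes. Of these 4 only *Pou3f1* was called without replicate 6. Of 11 other Schwann cell genes tested, 3 rose and 2 fell, beside 4151 higher and 3534 lower of all genes. *Erbb3* was at 2.12 and *Ncam1* at −1.29 (edgeR FDR = 1.79e-06 and 3.51e-06). Both were also called without replicate 6, at 1.98 and −1.39. The 3 tested perineurium genes, *Slc2a1*, *Cldn1* and *Itgb4*, rose with and without it, beside 4151 of all 16082 genes; epithelial and endothelial cells also transcribe these genes. In WT mice *Cldn1* (1.48) and *Itgb4* (1.45) rose between stages as well, and *Slc2a1* was at 0.23 (edgeR FDR = 0.478). Of 9 tested neurotrophin and neuregulin genes, 3 rose between stages in Fosl-2(Tg) mice (*Nrg2*, 0.90, *Ntrk2*, 0.90, and *Erbb2*, 0.51). In that comparison 4 fell, among them the neurotrophin gene *Ntf3* (−1.39) and the sorting receptor *Sort1* (−1.45). Beside them, 4151 of all 16082 genes rose and 3534 fell.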

How the data were processed

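The members and the gene lists were chosen with earlier results of these data known. The authors mapped reads of ribosomal RNA-depleted libraries to GRCm39 with STAR, counted them per gene with featureCounts against GENCODE release M26, and deposited the unscaled count of every gene. How strand and multiple hits were handled was not given in the sources used here. GENCODE release M39 gave a name to 25505 of the 25719 identifiers. *Nrg1* and *Lor* of the lists were not analysed here. Each library is 1 mouse, and no 2 libraries were alike within sampling noise.

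Counts were filtered with filterByExpr (minimum count 10, minimum total 15), scaled by TMM and tested with the quasi-likelihood test of edgeR 4.0.16 in R 4.3.3, within each stage and, for stage and interaction, over all 4 groups, without covariates. Benjamini-Hochberg adjustment ran over all genes tested, and genes at an FDR of at most 0.05 were called. Log2 CPM for correlations used a prior count of 2. DESeq2 1.42.0, the tool of the study, limma 3.58.1 and the alternatives named in the closing section were also run. Named genes were the members, called genes of the nerve and neurotrophin lists, *Mag*, *Erbb3*, *Nefl* and *Nefm*, the 10 genes most like *Sox10*, and up to 3 called genes per list of another cell type; *Scn7a*, and the libraries singled out, were named after their values were seen. Some genes that this rule names are not reported here. Same-numbered mice of the 2 genotypes deviated together at the early stage (r 0.14 to 0.40 in 7 of 7 pairs over all tested genes), a pairing read from the data and not from the labels. At the established stage 4 of 6 pairs passed 0.1 (r −0.23 to 0.69). Of pairs with different numbers, 18 of 49 early (r −0.60 to 0.59) and 14 of 36 established (r −0.63 to 0.54) passed 0.1. The fits and the permutation test were tested on simulated data.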

Additional observations from a re-analysis of the deposited data

Results flagged for a closer look

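Of 28 combinations of a member and a group, 5 had a single mouse far above the others by Dixon's 95% criterion, which chance alone meets in about 1 in 20 groups. In established Fosl-2(Tg) mice this was replicate 6 each time, with *Mbp* at 109.5 CPM, *Sox10* at 6.70 CPM, *Prx* at 39.8 CPM and *Cdh19* at 5.14 CPM. In established WT mice it was replicate 3, with *Mbp* at 47.9 CPM.

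The genotype difference differed between the stages by the interaction term of edgeR for *Mbp* (1.27 on the log2 scale), *Erbb3* (1.60), *Ncam1* (−1.27), *Sort1* (−1.25) and *Ntrk3* (−1.83). These 5 came from 6 members, 32 Schwann cell, axon and perineurium genes and 9 neurotrophin and neuregulin genes tested, beside 7.43% of all 16082 genes called. Stage, age and sex cannot be told apart in these values.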

How the results depend on the processing

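Depth limits *Sox10*, *Ngfr* and *Cdh19*, which rest on few counts in most libraries, and stage cannot be separated from sex. The established count of members called, 0, was 2 with DESeq2, and 1 with all 4 groups in a single fit, limma voom, sex as a covariate, the replicate block or without Fosl-2(Tg) replicates 6 and 7 (a choice made after seeing the data), and 0 to 1 with a library left out. The 3 calls of the Schwann cell, axon and perineurium lists became 6 with DESeq2, 1 with females only, 1 without a filter, 5 without replicates 6 and 7, and 1 to 3 with a library left out. The interaction call became 0 with voom, without a filter and without the 2 established males, and 0 to 1 with a library left out. The 4 members called between stages in Fosl-2(Tg) mice became 2 with voom and 2 to 5 with a library left out. Established *Prx* reversed to −0.47 with DESeq2, −0.015 with voom and −0.46 without replicates 6 and 7 (range with a library left out −0.49 to 0.74). Early *Pmp22* reversed to 0.086 with voom (−0.15 to 0.047), and the *Pmp22* interaction ranged from −0.20 to 0.022. *Ngfr* reversed without replicates 6 and 7, to −0.996 established, −1.82 for the interaction and −0.34 between stages, and its interaction was −0.80 with voom and −0.69 to 0.43 with a library left out. With the replicate block, established *Ngfr* was −0.34 and its interaction −1.18. The correlation with *Sox10* weakened without the 2 farthest mice, to 0.38 for *Mbp* and 0.40 for *Prx*, from 0.66 and 0.71 over 28 mice. In early mice r was 0.61 for *Mbp* and 0.65 for *Prx*. In established mice it was slightly higher than over all mice, at 0.71 and 0.74, with an adjusted permutation p of 0.0673 for both. The correlation of *S100b* reversed to −0.045 without the 2 farthest mice. The causes were not tested. Whether the numbers pair the mice was not settled at either stage. The median r of same-numbered mice was 0.28 early and 0.31 established. Of WT mice, 0 of 7 early and 2 of 6 established were closest to their own number. The replicate block called 924 genes against 1032 at the established stage, 11 against 6 early and 2000 against 1195 for the interaction.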
